A study of Mus musculus with 14 samples.

Results

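The ovaries of mice given dextran sulfate sodium (DSS) were compared at day 89 and at day 7, with 4 libraries in each group. These 8 libraries were taken by their treatment and day labels from the 14 of the series, and the comparison runs over the 18006 genes tested of 56748 in the table. DSS is a sulfated polysaccharide that injures the lining of the colon when mice drink it and is a standard means of inducing colitis. Every animal in the series was a female C57BL/6J mouse of wild-type genotype, and the tissue was ovary. The groups were DSS at day 89 (replicates R29, R38, R78 and R89), DSS at day 7 (replicates 75, 80, 81 and 82), control at day 89 (n = 3) and control at day 7 (n = 3). Day 7 is the end of DSS modelling in the series text, and day 89 the end of the rest that followed. The comparison asks what stood differently in the ovary after the rest than at the end of DSS. Day is tied to age and to anything else that differed between both collections, and these cannot be told apart in DSS ovaries alone. The control ovaries at the same days are therefore given beside many of the gene lists and many of the genes. The labels do not say that each library is 1 animal, so p-values here reflect the spread among libraries, part of which may be technical.

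The ovary turns cholesterol into steroid hormones. Theca and granulosa cells of growing follicles make androgens and oestrogens, and after ovulation the follicle wall becomes the corpus luteum, which takes up lipoprotein cholesterol and makes progesterone. Oocytes of resting and growing follicles carry a set of transcripts made in no other ovarian cell, and the pool of follicles shrinks with age. Acute inflammation elsewhere in the body brings neutrophils and acute-phase transcripts into many tissues. Bulk RNA measures a whole ovary: fewer cells of a type and less RNA per cell cannot be told apart.

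Values are FPKM, fragments scaled to gene length and to a total for each library, as the authors deposited them. Fold changes are differences of log2(FPKM + 1), day 89 minus day 7, and the test is limma's moderated test over all genes with Benjamini-Hochberg adjustment and a threshold of 0.05. Depth, recovered from the values, ran from 15256018 to 18505144 reads per library. The ovary label was checked against the list of retina markers, because the extraction text mentions retina samples: the highest of 15 retina genes was Rom1 at 7.22 FPKM and the next was Sag at 0.733 FPKM. Oocyte, steroidogenic and granulosa genes were abundant in every group. Mitochondrially encoded transcripts took 2.37 to 3.66% of reads in the DSS day 89 libraries and 3.48 to 14.2% in the DSS day 7 libraries, where replicate 75 held the highest share. Among controls the share was 0.479 to 2.25% at day 89 and 1.66 to 12.2% at day 7.

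Between day 89 and day 7, 3860 of 18006 genes (21.4%) differed in DSS ovaries. Of these 1925 (10.7% of genes tested) were higher and 1935 (10.7%) lower at day 89. Both directions were thus even, and each share is the background against which the gene lists below are read. A log2 change of at least 1 in size was reached by 910 of the called genes, 392 higher and 518 lower. The libraries of both days did not overlap for 3114 of the called genes; over all genes tested, called or not, 24.8% did not overlap. Leaving out DSS day 89 replicate R29 or R78, or DSS day 7 replicate 81, gave 2034, 2061 and 2510 called genes. Without DSS day 89 replicate R38, 4930 genes were called.

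In control ovaries the same interval changed 5732 genes (31.8%), 2900 higher and 2832 lower at day 89. No library is shared between both intervals. Of the genes called in DSS, 2687 were also called in controls, which is 69.6% of the genes called in DSS and 46.9% of those called in controls. The sign was the same in 2683 of them. The difference of both changes was tested directly: no gene passed with limma at the adjusted threshold (smallest adjusted p = 0.254), and 1521 genes (8.45%) had an unadjusted p under 0.05. voom, limma's test for counts, on the recovered reads also called 0 genes, with 1482 at an unadjusted p under 0.05. By the main test the 1173 genes called in DSS and not in controls are therefore not shown to be particular to DSS. Of them 199 had an unadjusted p under 0.05 for the difference.

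The change ran with gene length. The tested genes were put in 4 length classes of equal size. Genes of the shortest class had a median log2 change of −0.20, with 252 higher and 737 lower, and genes of the longest class a median of 0.20, with 896 higher and 157 lower. In control ovaries the medians were −0.32 in the shortest and 0.29 in the longest class. The difference of both changes also ran with length, with medians of 0.11 in the shortest and −0.10 in the longest class. Each library's short genes were set against its long genes on the log2 scale, relative to the mean library. This measure was −0.24, 0.107, −0.307 and −0.295 in the DSS day 89 libraries, against 0.418, 0.142, 0.229 and 0.163 in the DSS day 7 libraries. Only replicate R38 among the day 89 libraries was positive, and the groups did not overlap (exact permutation p = 0.0286, 2-sided, the smallest that 4 against 4 can give). With each library's length trend removed 3109 genes were called, close to evenly in every class. The removal is built to give such evenness, so it is not a separate result.

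**Figure D1:**
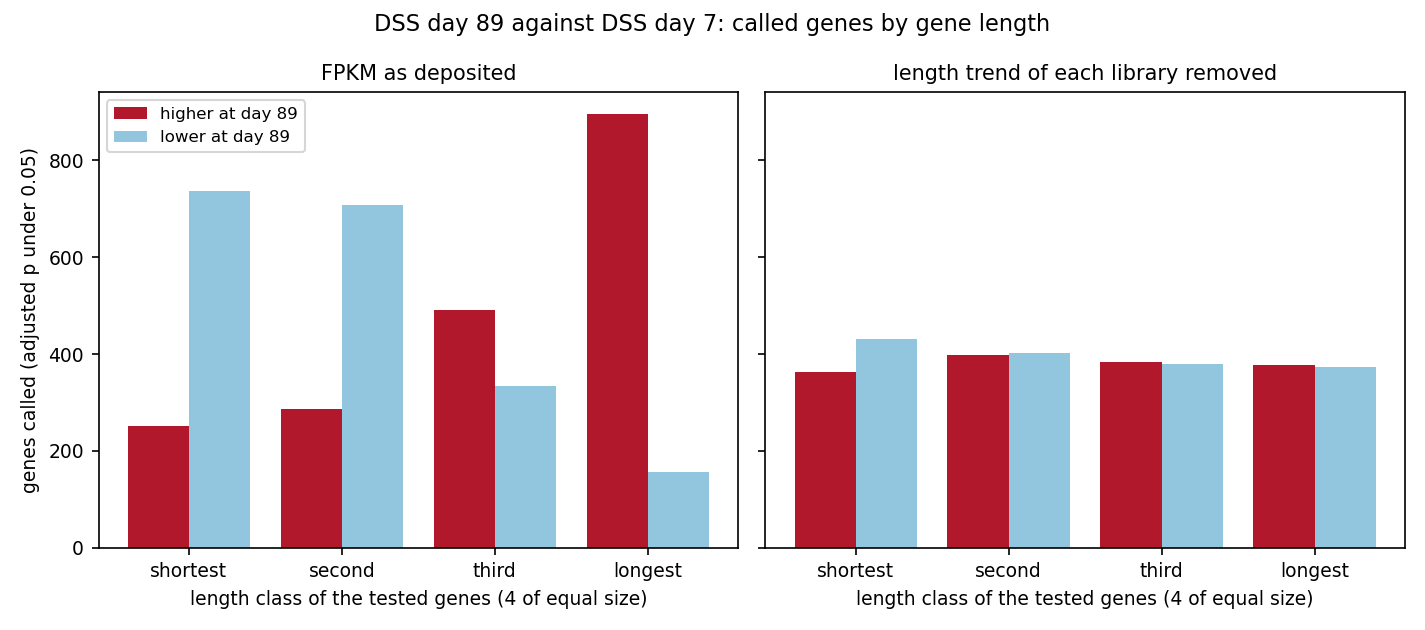
Number of genes called higher (red) and lower (blue) in DSS day 89 against DSS day 7, in 4 equal classes of the 18006 tested genes by deposited gene length, from the values as deposited (left) and with each library's length trend removed (right). As deposited, 896 of the longest class were higher and 157 lower. With the trend removed the classes hold similar numbers in both directions, which the removal is built to give.

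Genes of steroid synthesis, of the corpus luteum and of cholesterol supply were higher at day 89. Of 16 steroidogenic genes 6 rose (37.5%) and none fell with limma, with a median log2 change of 0.78, against 0.00 over all genes. Of 11 luteal genes 6 rose and 0 fell (median 1.58), and of 27 cholesterol synthesis and uptake genes 13 rose (48.1%) and 0 fell (median 0.89). All 27 cholesterol genes and all 11 luteal genes had a change above 0. Star, Scarb1, Cyp11a1 and Hsd3b1 stand in more than 1 of these lists. In control ovaries the medians were 0.32, 0.78 and 0.46, with 1, 0 and 4 members risen. The steroidogenic count was 3 without 81 or R78, and the luteal count 3 without 81, R29 or R78. The cholesterol count was 8 without 75 or 81, 6 without R29 and 5 without R78.

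Star carries cholesterol to the inner mitochondrial membrane, the rate-limiting step of steroid synthesis. Star (ENSMUSG00000031574, chr8:25806555-25815982 on GRCm38) had 269, 316, 244 and 64.8 FPKM in the DSS day 89 libraries, against 41.2, 42.5, 39.7 and 33.5 FPKM in the DSS day 7 libraries. All 4 day 89 libraries were above all day 7 libraries, although replicate R89 stood far below the other three. The log2 fold change was 2.27 (SE 0.40, adjusted p = 0.00319). Control libraries held 294, 229 and 195 FPKM at day 89 and 234, 131 and 109.6 FPKM at day 7, so the DSS day 7 libraries were also the lowest of all 14. The change in controls was 0.65, and the difference between both changes was 1.61 (limma unadjusted p = 0.0199, adjusted p = 0.553).

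Cyp11a1, the enzyme that cleaves the cholesterol side chain to begin steroid synthesis, had 1436, 968, 1421 and 805 FPKM at day 89, against 1019, 399, 218 and 212 FPKM at day 7. Replicate 75 of day 7 lay within the day 89 range, so the groups overlapped. Its log2 fold change was 1.60 (SE 0.41, adjusted p = 0.0164), and the call was lost without replicate 81, R29 or R78 (adjusted p 0.052 to 0.0525). Por, the reductase that passes electrons to the steroidogenic P450 enzymes, rose by 1.00 (SE 0.23, adjusted p = 0.0107) and by 1.27 in controls (adjusted p = 0.00362). Hsd3b6, a 3-beta-hydroxysteroid dehydrogenase, rose by 0.78 (SE 0.19, adjusted p = 0.0137) and was low in both groups, at 0.352 to 1.39 FPKM at day 89 and 0.0586 to 0.233 FPKM at day 7. The Hsd3b genes are near-identical copies, so the split of their reads is uncertain.

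Scarb1 encodes the receptor that takes cholesterol esters from high-density lipoprotein and is abundant in luteal cells. Scarb1 (ENSMUSG00000037936, chr5:125277087-125341094) had 204, 89.3, 192 and 77.5 FPKM at day 89, against 45, 32.9, 20.8 and 24.7 FPKM at day 7, with no overlap. It rose by 2.08 (SE 0.35, adjusted p = 0.00237), and its change in controls was 1.03 (adjusted p = 0.0627). Lhcgr, the luteinizing hormone receptor, had 144, 23.9, 133 and 61.9 FPKM at day 89, against 35.3, 15.6, 6.01 and 5.92 FPKM at day 7. Replicate R38 of day 89 was below replicate 75 of day 7, and the log2 fold change was 2.50 (SE 0.59, adjusted p = 0.0117), beside 0.94 in controls (adjusted p = 0.311). Prlr, the prolactin receptor through which the rodent corpus luteum is maintained, rose by 1.58 (SE 0.42, adjusted p = 0.0202), also with overlap, and its change in controls was 0.78 (adjusted p = 0.236). Prlr was no longer called without replicate 81, 82, R29 or R78 (adjusted p 0.0513 to 0.0671).

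Sc5d (ENSMUSG00000032018, chr9:42251595-42264256), the lathosterol oxidase of cholesterol synthesis, had 28.6, 21.8, 36.8 and 39.1 FPKM at day 89, against 11.1, 13.6, 12.1 and 14.6 FPKM at day 7. Every day 89 library was above every day 7 library. Sc5d rose by 1.21 (SE 0.24, adjusted p = 0.00532), while its change in controls was 0.05 (unadjusted p of the difference = 0.00729, adjusted p = 0.517). The cholesterol genes that rose also included Idi1, Dhcr7, Sqle, Insig1, Nsdhl, Tm7sf2, Soat1 and Srebf2, the gene of the transcription factor that governs this pathway. Idi1, the isopentenyl diphosphate isomerase, averaged 9.22 ± 7.3 FPKM at day 89 and 1.22 ± 0.403 FPKM at day 7 (SD, n = 4 each), a log2 change of 1.83 (SE 0.50, adjusted p = 0.0221). Insig1, which holds the sterol sensor in the endoplasmic reticulum, averaged 37.1 ± 20.4 FPKM at day 89 and 14.1 ± 5.68 FPKM at day 7, a log2 change of 1.26 (SE 0.41, adjusted p = 0.0426). Idi1 and Insig1 were chosen after their values were seen, and neither call held in all leave-one-out fits: Idi1 was lost without 75, R29 or R78 (adjusted p 0.0568 to 0.0722), and Insig1 without 75, 80, 81, R29, R78 or R89 (adjusted p 0.0558 to 0.13).

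Because these genes moved together, their promoters were read from the RefSeq promoter table on GRCm38.p6. The table held 19 of the 28 listed cholesterol genes, 8 of which rose. The 250 bases before the start were searched on both strands for 9 strings of letters, chosen with the list in view. CCAAT, the box bound by NF-Y, was present in 17 of the 19 genes and in all 8 that rose, against 37.5% of the 27025 genes in the table. CACGTG, an E-box, was in 5 of 19, against 6.86% of all genes. CAGGTG, another E-box, went the other way, in 2 of 19 and in 0 of the 8 that rose, against 19.4% of all genes. TCACCCCAC, a sterol response element core, was in 1 of 19, Hmgcs1, against 0.555% of all genes. Such a match describes the letters and is not evidence that a factor binds. The promoters of 3 of the genes that rose are shown 5′ to 3′ on the gene's strand, with CCAAT or its reverse complement ATTGG in capitals: Sc5d from chr9:42264301-42264550 (minus strand), Insig1 from chr5:28071162-28071411 (plus strand) and Idi1 from chr13:8885356-8885605 (plus strand).
Sc5d: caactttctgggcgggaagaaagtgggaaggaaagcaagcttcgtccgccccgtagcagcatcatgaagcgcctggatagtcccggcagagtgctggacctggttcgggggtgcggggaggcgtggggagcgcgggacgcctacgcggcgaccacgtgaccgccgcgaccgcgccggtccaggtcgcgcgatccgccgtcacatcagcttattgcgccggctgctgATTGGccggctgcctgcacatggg
Insig1: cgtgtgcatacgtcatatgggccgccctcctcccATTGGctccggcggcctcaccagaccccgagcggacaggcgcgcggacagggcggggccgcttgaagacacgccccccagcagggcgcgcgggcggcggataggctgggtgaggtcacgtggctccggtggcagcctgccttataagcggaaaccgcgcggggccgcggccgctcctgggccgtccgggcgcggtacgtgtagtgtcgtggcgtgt
Idi1: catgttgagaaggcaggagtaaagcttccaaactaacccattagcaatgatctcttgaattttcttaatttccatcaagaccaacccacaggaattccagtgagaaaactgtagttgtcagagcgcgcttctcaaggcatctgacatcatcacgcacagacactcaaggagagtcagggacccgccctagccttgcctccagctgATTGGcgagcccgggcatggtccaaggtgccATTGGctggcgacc
Sc5d and Insig1 hold 1 CCAAT match each in this window, and Idi1 holds 2.

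Enzymes that shape fatty acids were among the 12 largest rises. Scd1, the desaturase that makes oleate, had 30.4, 8.54, 24.8 and 6.37 FPKM at day 89, against 1.87, 2.14, 2.11 and 2.15 FPKM at day 7. The 4 day 7 values lay within a narrow range, and the day 89 values split into R29 and R78 above R38 and R89. Scd1 rose by 2.33 (SE 0.36, adjusted p = 0.00181), and by 1.47 in controls (adjusted p = 0.0167). Elovl6, which elongates palmitate to stearate, had 26.3, 11.3, 31.3 and 33.7 FPKM at day 89, against 11, 3.19, 2.55 and 3.84 FPKM at day 7 and rose by 2.19 (SE 0.38, adjusted p = 0.00291). Controls held 11.5, 23.1 and 19.7 FPKM at day 89 and 16.5, 17.9 and 20.7 FPKM at day 7 for Elovl6, and the difference between both changes had an unadjusted p of 0.00171 (adjusted p = 0.422). Cpt1a, the gate of mitochondrial fatty acid oxidation, rose by 1.11 (SE 0.16, adjusted p = 0.00172), and by 1.56 in controls (adjusted p = 0.000282).

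The remaining large rises were of other kinds. Vcl, the actin-anchoring protein vinculin, had 13.8, 4.33, 15.4 and 17.8 FPKM at day 89, against 0.236, 1.45, 0.871 and 1.59 FPKM at day 7, a rise of 2.67 (SE 0.34, adjusted p = 0.00119) that was 3.82 in controls. Cpxm2, a carboxypeptidase-like secreted protein, rose by 2.52 (SE 0.54, adjusted p = 0.00737), and Abcb1b, a drug efflux pump of the cell membrane, by 2.26 (SE 0.45, adjusted p = 0.00532). Klhl11, a substrate adaptor of a ubiquitin ligase, had 9.72, 0.792, 15.4 and 10.7 FPKM at day 89, against 0.775, 0.783, 0.64 and 0.395 FPKM at day 7: R38 was barely above day 7 while the other three stood far above it. It rose by 2.25 (SE 0.49, adjusted p = 0.00819), and by 2.73 in controls (adjusted p = 0.0034). Inhba, the activin and inhibin beta-A subunit made by granulosa cells of growing follicles, rose by 2.39 (SE 0.74, adjusted p = 0.0363). That call was lost in 7 of the 8 fits that leave out 1 DSS library (adjusted p 0.0545 to 0.0988) and with the length trend removed (adjusted p = 0.0503).

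Follicle genes other than these mostly did not pass. Among 15 granulosa genes 1 rose, Inhba, and 1 fell, Amhr2, the receptor of anti-Müllerian hormone, which had 37.7, 52.8, 49.4 and 91.5 FPKM at day 89, against 92.4, 108, 111 and 103 FPKM at day 7 (log2 change −0.90 (SE 0.23, adjusted p = 0.0148), not called without R29, adjusted p = 0.0502). With FPKM rescaled to a common sum Amhr2 was not called (log2 change −0.58, limma adjusted p = 0.125), and 2 granulosa genes rose and 0 fell. None of 12 theca genes passed with limma (1 had an unadjusted p under 0.05) or with voom, but 1 fell without 75 and 2 rose without R38. In controls 1 granulosa gene fell and 1 theca gene rose. Cyp19a1, the aromatase that makes oestradiol, had 6.67, 17.5, 2.67 and 26.2 FPKM at day 89, against 0.706, 1.06, 0.795 and 2.72 FPKM at day 7, a log2 change of 2.31 (SE 0.89, adjusted p = 0.0793). Its spread within each group was wide, and in controls replicate 51 of day 7 alone reached 74.6 FPKM. Cyp17a1, the theca enzyme of androgen synthesis, had a log2 change of 2.31 (SE 1.04, adjusted p = 0.126), Fshr, the follicle-stimulating hormone receptor, 0.77 (SE 0.38, adjusted p = 0.158), and Amh, the hormone of small growing follicles, −0.93 (SE 0.50, adjusted p = 0.192). Of 10 tested periovulatory genes of 17 listed, 3 rose and 0 fell, and in controls 2 rose. Adamts1, a protease that remodels the follicle wall at ovulation, had 10.2, 11.2, 12.3 and 11.4 FPKM at day 89, against 2.77, 4.29, 3.81 and 2.85 FPKM at day 7 and rose by 1.48 (SE 0.28, adjusted p = 0.00402). Adamts4, its relative, rose by 0.92 (SE 0.17, adjusted p = 0.00398).

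**Figure D2:**
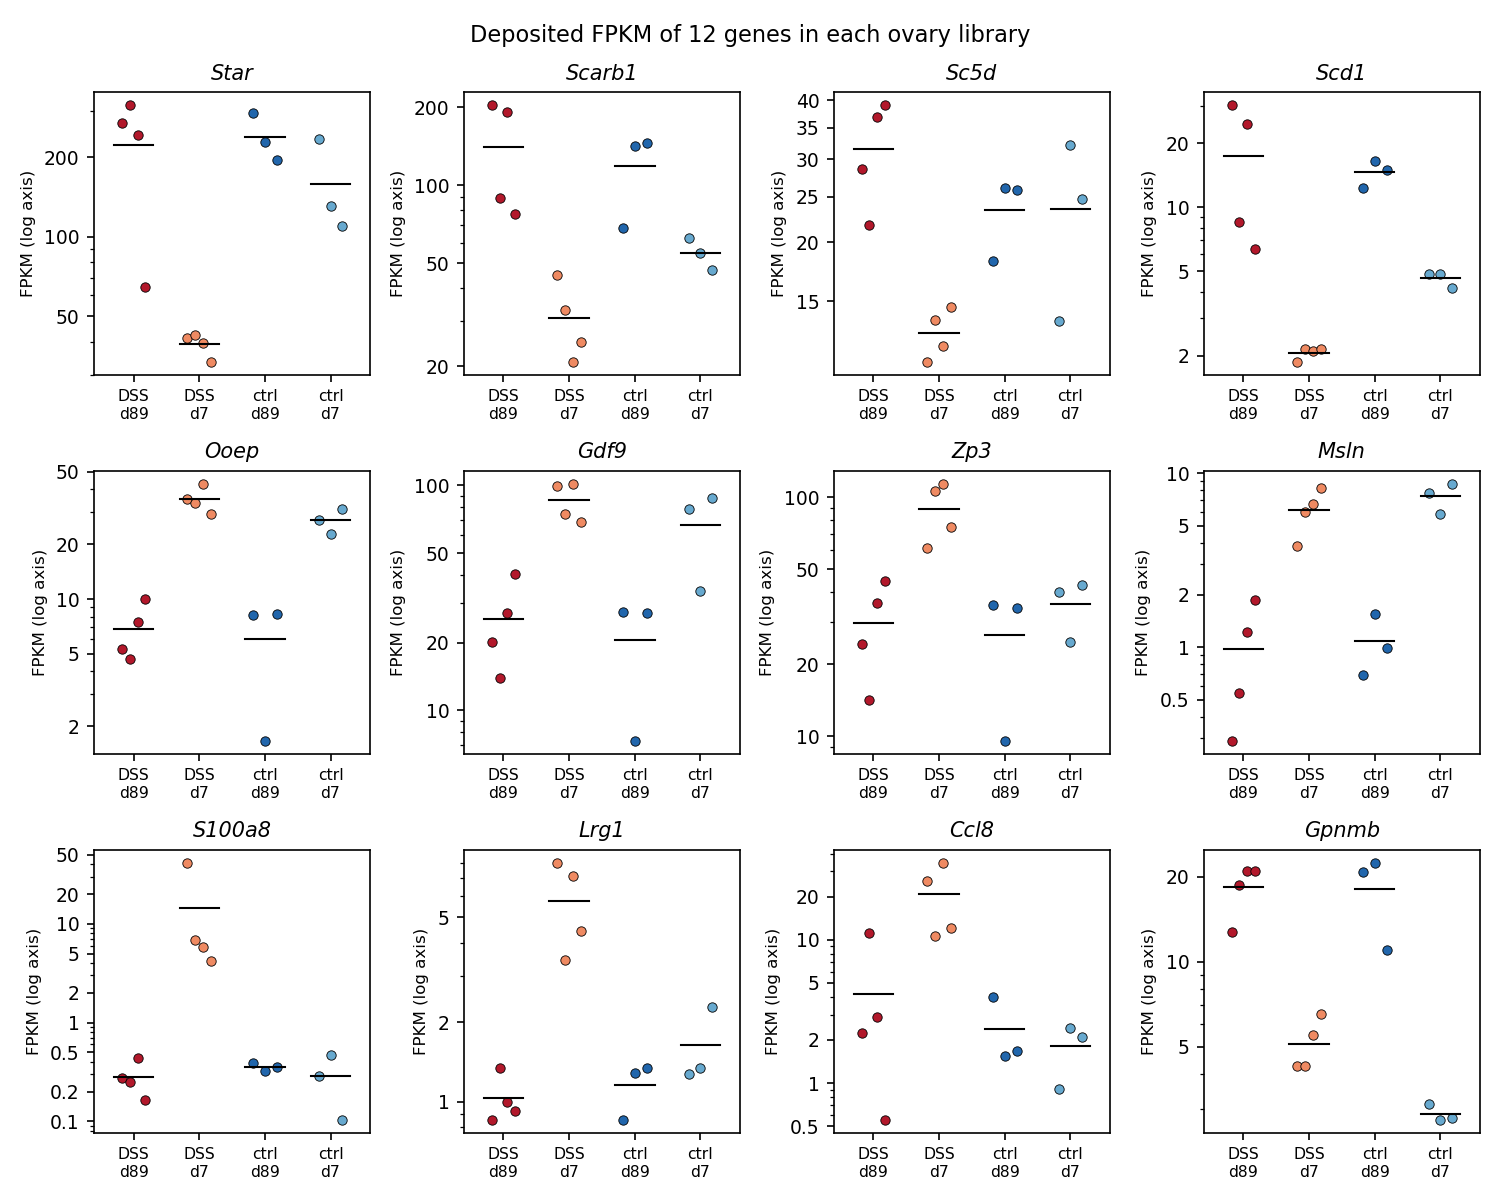
Deposited FPKM (log axis) of 12 genes in each library, with DSS day 89, DSS day 7, control day 89 and control day 7 from left to right; each point is 1 library and each line a group mean. Star, Scarb1, Sc5d and Scd1 stand higher at day 89 than at day 7 in DSS ovaries, Ooep, Gdf9, Zp3 and Msln lower, and S100a8, Lrg1 and Ccl8 have their highest group mean in DSS day 7.

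Oocyte genes were lower at day 89. Of 29 listed 27 were tested, 25 fell (92.6%, against 10.7% of all genes) and 0 rose. The median log2 change was −1.47, with members from −2.29 to −0.56, and 24 did not overlap between the groups. In control ovaries 13 fell and the median was −0.74. With FPKM rescaled to a common sum, which raises the median of all genes by 0.29, 16 fell. The members' median was then −1.60 relative to all genes. With the length trend removed 20 fell, and leaving out 1 DSS library gave 17 to 24.

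Ooep belongs to the maternal complex beneath the oocyte membrane that early embryos need. Ooep (ENSMUSG00000032346, chr9:78376109-78378725) had 5.34, 4.7, 7.5 and 9.95 FPKM in the DSS day 89 libraries, against 35.2, 33.7, 43 and 29.2 FPKM in the DSS day 7 libraries. The groups were far apart, and Ooep fell by 2.24 (SE 0.34, adjusted p = 0.00175). Dppa3, a maternal protein that guards the methylation of the egg genome, had 7.82, 5.8, 10.1 and 12.2 FPKM at day 89, against 51.3, 44.9, 56.4 and 31.6 FPKM at day 7 and fell by 2.25 (SE 0.38, adjusted p = 0.00244). Bcl2l10, an oocyte member of the Bcl2 family, fell by 2.29 (SE 0.37, adjusted p = 0.00212). Dppa5a, an RNA-binding protein of pluripotent and germ cells, fell by 2.40 (SE 0.36, adjusted p = 0.00175). Controls changed by −2.20 for Ooep, −2.16 for Dppa3, −2.08 for Bcl2l10 and −2.28 for Dppa5a, each past the threshold. Ftdc1, a ferritin-domain gene in the mouse, fell by 2.24 (SE 0.37, adjusted p = 0.00232).

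Gdf9 is the oocyte factor that drives granulosa growth. Gdf9 (ENSMUSG00000018238, chr11:53431023-53437904) had 20.2, 13.9, 27.1 and 40.3 FPKM at day 89, against 98.8, 74.3, 102 and 68.8 FPKM at day 7. All day 89 libraries lay below all day 7 libraries, and Gdf9 fell by 1.80 (SE 0.42, adjusted p = 0.0106). Zp3, the sperm-binding protein of the egg coat, had 24.4, 14.2, 36.1 and 44.6 FPKM at day 89, against 61.2, 106, 114 and 74.8 FPKM at day 7, a log2 change of −1.62 (SE 0.41, adjusted p = 0.0155). Controls held 35.3, 9.55 and 34.3 FPKM at day 89 and 40.0, 24.8 and 42.8 FPKM at day 7 for Zp3, a change of −0.59 that was not called; the difference of both changes had an unadjusted p of 0.123. Zp3 was no longer called in the rescaled values (adjusted p = 0.052). Sohlh1 and Figla, transcription factors of the resting follicle's oocyte, had log2 changes of −1.73 (SE 0.21, adjusted p = 0.00101) and −1.56 (SE 0.22, adjusted p = 0.0015), both called. Khdc3, of the same maternal complex as Ooep, fell by 1.40 (SE 0.22, adjusted p = 0.00203).

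In the list of the primordial follicle reserve, 4 of 11 fell and 2 rose, and in controls 2 fell and 1 rose. The falls numbered 2 without 80, 81, R38 or R78 and in the rescaled values, and the rises 1 without 75, R29, R78 or R89 and with the length trend removed. Those that fell were Sohlh1, Figla, Nobox and Kit, and all but Kit are already counted among the falls of the oocyte list. Cdkn1b, a cell cycle inhibitor that restrains follicle activation and that many cells express, had 78.6, 45.5, 85.1 and 37.2 FPKM at day 89, against 31.4, 26.1, 32.7 and 24.1 FPKM at day 7 and rose by 1.01 (SE 0.25, adjusted p = 0.0136). Gpha2, a subunit of the hormone thyrostimulin, had 0.577, 0.373, 0.238 and 2.13 FPKM at day 89, against 11.7, 7.16, 5.76 and 5.66 FPKM at day 7 and fell by 2.28 (SE 0.29, adjusted p = 0.00119). Gpha2 changed by −0.72 in controls, and the difference of both changes had an unadjusted p of 0.00362 (adjusted p = 0.487).

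Genes of the ovarian surface epithelium were lower too: 10 of 14 tested fell (71.4%) and 0 rose, with a median of −1.04, and 10 fell in controls with a median of −1.30. Without replicate 81 or R29 the count was 5, and in the rescaled values it was 3. Msln, the surface glycoprotein mesothelin, had 0.29, 0.544, 1.22 and 1.86 FPKM at day 89, against 3.83, 6.01, 6.67 and 8.21 FPKM at day 7, a log2 change of −1.89 (SE 0.26, adjusted p = 0.00147) with no overlap. Krt18, a keratin, fell by 1.63 (SE 0.25, adjusted p = 0.00175), and Bnc1, an epithelial transcription factor, fell by 0.86 (SE 0.21, adjusted p = 0.0129). Krt7, another keratin, fell by 0.99 (SE 0.24, adjusted p = 0.0125) with overlap, and was not called in the rescaled values (adjusted p = 0.0518). Of 5 tested genes of oviduct and motile cilia, which could come with adhering tissue, 1 fell, Tekt1. In controls 3 of them fell.

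**Figure D3:**
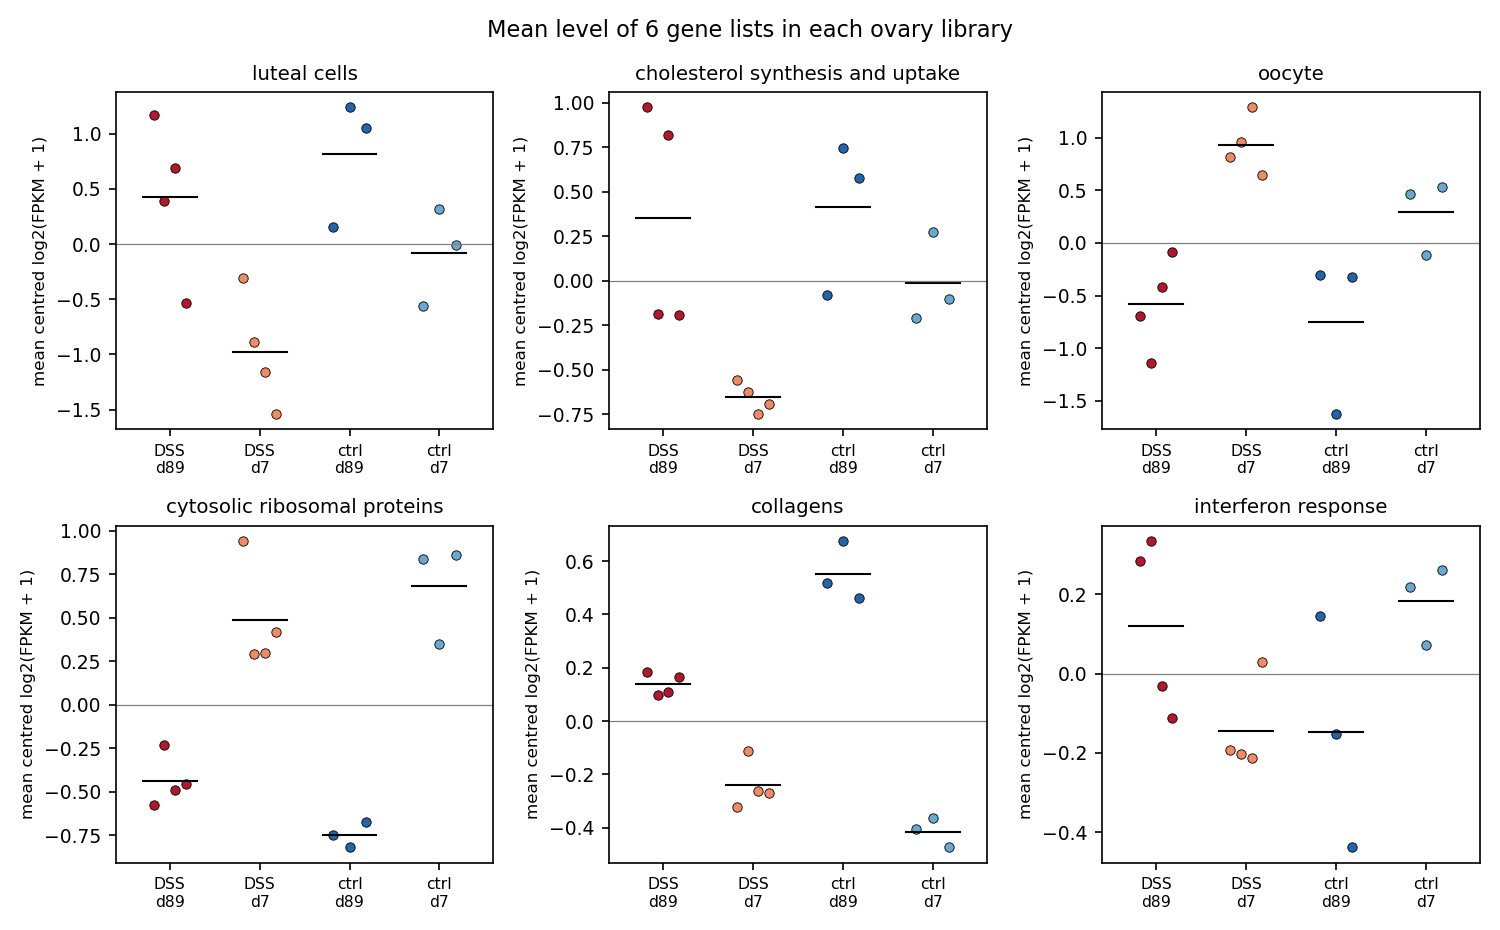
Mean level of 6 gene lists in each library, as log2(FPKM + 1) centred on each gene's mean over 14 libraries (0 is the average library), with DSS day 89, DSS day 7, control day 89 and control day 7 from left to right. Luteal and cholesterol lists have their lowest group mean in DSS day 7, oocyte genes have their highest there, and ribosomal protein genes are high at day 7 in both treatments.

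Matrix genes were higher at day 89 in DSS ovaries and by a larger median in controls. Of 25 collagen genes 10 rose (40%) and 0 fell, with a median of 0.53; in controls 17 rose with a median of 1.06. Of 29 other matrix genes 8 rose and 0 fell (median 0.48; in controls 18 rose, median 0.94). Both lists consist of long genes, with median lengths of 7973 and 6911 bases, and with the length trend removed 5 of each rose. The collagen count was 5 without 81 or R29 and 6 without R89, and the count of other matrix genes 5 without R29, R78 or R89 and 13 in the rescaled values.

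Col4a1 forms the network of basement membranes. Col4a1 (ENSMUSG00000031502, chr8:11198423-11312826) had 149, 124.3, 138 and 121 FPKM at day 89, against 62.7, 91.9, 59.1 and 62 FPKM at day 7. The groups did not overlap and it rose by 0.96 (SE 0.18, adjusted p = 0.00407). Controls held 208, 241 and 199.7 FPKM at day 89 and 65.1, 54.2 and 38.5 FPKM at day 7, a rise of 2.05 (adjusted p = 0.000181), and the difference of both changes was −1.09 (unadjusted p = 0.00138, adjusted p = 0.422). Col6a3, of the microfibrils around cells, rose by 1.00 (SE 0.18, adjusted p = 0.00335). Col5a1, a fibrillar chain that sets fibril width, rose by 0.58 (SE 0.12, adjusted p = 0.00532), and Col12a1, which coats fibrils, by 0.92 (SE 0.22, adjusted p = 0.0115). Col1a1, the main fibrillar chain, had 125, 182, 99 and 122 FPKM at day 89, against 61.2, 93, 82.6 and 80.1 FPKM at day 7. Its day 89 libraries all stood above day 7, but the log2 change of 0.71 (SE 0.29, adjusted p = 0.0902) did not pass.

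Nid2, a linker of basement membranes, rose by 1.21 (SE 0.27, adjusted p = 0.00853), and Fbn1, the microfibril protein fibrillin, by 1.15 (SE 0.25, adjusted p = 0.00784). Lama5, a laminin chain, had 4.34, 4.54, 4.56 and 4.25 FPKM at day 89, against 2.52, 2.5, 2.57 and 2.62 FPKM at day 7. The 8 values fell into 2 tight groups, a rise of 0.61 (SE 0.12, adjusted p = 0.00512) that was not called with the length trend removed (adjusted p = 0.0719). Among 21 matrix proteases and inhibitors 7 rose and 2 fell (Mmp14 and Mmp23), and in controls 10 rose and 1 fell. The falls numbered 0 without 75, R29, R78 or R89 and in the rescaled values, and 1 without 81 and with the length trend removed. Timp3, an inhibitor of metalloproteinases bound to matrix, had 12.6, 6.48, 18.1 and 13.8 FPKM at day 89, against 1.88, 3.35, 3.24 and 3.06 FPKM at day 7 and rose by 1.76 (SE 0.27, adjusted p = 0.00181). Mmp12, the elastase of macrophages, rose by 1.06 (SE 0.20, adjusted p = 0.00394). Of 20 endothelial genes 7 rose (4 without R29 or R78) and 0 fell, while 5 rose and 1 fell in controls, among the DSS rises Cdh5, the adhesion protein of endothelial junctions, with 34, 28.8, 33.9 and 34.3 FPKM at day 89, against 17.5, 19.3, 15.6 and 17.2 FPKM at day 7 and a rise of 0.88 (SE 0.13, adjusted p = 0.00175). Eng, a TGF-beta co-receptor of vessels, rose by 0.69 (SE 0.15, adjusted p = 0.00825).

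The neutrophil transcripts S100a8, S100a9 and Retnlg were lower after the rest than at the end of DSS, but the neutrophil list as a whole did not move one way. Its summed level was 8.32 to 13.7 FPKM in the DSS day 89 libraries, against 15.8 to 137 FPKM in the DSS day 7 libraries. That sum is carried mostly by the same genes: S100a9, S100a8 and Retnlg held 63.9, 41.4 and 22.4 FPKM in replicate 75. It is therefore not a separate result for the rest of the list. S100a8 and S100a9 encode both chains of calprotectin, an abundant protein of neutrophils. S100a8 (ENSMUSG00000056054, chr3:90668978-90670035) had 0.274, 0.248, 0.441 and 0.163 FPKM in the DSS day 89 libraries, against 41.4, 6.91, 5.79 and 4.24 FPKM in the DSS day 7 libraries. Replicate 75 was far above the other day 7 libraries, and all 4 day 7 libraries were above all day 89 libraries. The log2 fold change was −3.03 (SE 0.47, adjusted p = 0.00184). Control libraries held 0.394, 0.325 and 0.352 FPKM at day 89 and 0.288, 0.468 and 0.103 FPKM at day 7, in the range of the DSS day 89 libraries. The change in controls was 0.09, and the difference of both changes was −3.12 (unadjusted p = 0.000672, adjusted p = 0.419).

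S100a9 had 0.121, 0.11, 1.99 and 0 FPKM at day 89, against 63.9, 7.82, 8.4 and 6.54 FPKM at day 7 and fell by 3.35 (SE 0.58, adjusted p = 0.00291). Both calprotectin genes were called in every fit that left out 1 library, replicate 75 included. Retnlg, which neutrophils express, had 0 FPKM in 3 of the 4 day 89 libraries and 0.291 FPKM in R38, against 22.4, 3.16, 2.14 and 0.443 FPKM at day 7. Its log2 change was −2.10 (SE 0.57, adjusted p = 0.0211), lost without R29 or R78 (adjusted p 0.0537 and 0.0538). Of 15 listed neutrophil genes 8 were tested, 3 fell and 1 rose, 4 changes were above 0, and the median was −0.01. In controls 2 rose and 0 fell. S100a8 and Retnlg entered the test only through the DSS day 7 libraries, so the count of falls is partly set by the filter. Ltf, the iron binder lactoferrin, which epithelia make too, went the other way, with 2.61, 2.65, 2.25 and 2.26 FPKM at day 89, against 0.667, 0.16, 0.291 and 0.731 FPKM at day 7 and a rise of 1.25 (SE 0.28, adjusted p = 0.00942).

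Lrg1, a glycoprotein induced by inflammation in vessels and liver, had 0.856, 1.35, 1 and 0.924 FPKM at day 89, against 8.01, 3.44, 7.13 and 4.44 FPKM at day 7. The groups were well separated, with a log2 change of −1.68 (SE 0.21, adjusted p = 0.00119). Controls held 0.854, 1.28 and 1.34 FPKM at day 89 and 1.28, 1.34 and 2.29 FPKM at day 7, a change of −0.28, and the difference had an unadjusted p of 0.000748 (adjusted p = 0.419). Lcn2, a siderophore binder of neutrophils and stressed epithelia, had 0.266, 0.548, 0.56 and 0.496 FPKM at day 89, against 3.48, 0.946, 2.9 and 1.58 FPKM at day 7 and fell by 1.07 (SE 0.26, adjusted p = 0.0137). These were the 2 of 9 tested acute-phase genes (18 listed) that fell, and 0 rose, while 1 rose in controls. Among 22 tested cytokines and chemokines of 31 listed 3 fell and 0 rose, 13.6% against a background of 10.7%, and 5 fell without 75. In controls 1 rose. All 3 are monocyte attractants of 1 gene cluster. Ccl8 had 2.23, 11.1, 2.88 and 0.553 FPKM at day 89, against 25.7, 10.6, 34.4 and 12.1 FPKM at day 7, with R38 above the lowest day 7 library, and fell by 2.31 (SE 0.52, adjusted p = 0.00969). Ccl12 fell by 1.43 (SE 0.32, adjusted p = 0.00893) and Ccl7 fell by 1.65 (SE 0.52, adjusted p = 0.0382). Ccl7 was not called without 81, 82, R29, R38, R78 or R89 (adjusted p 0.0571 to 0.108).

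Some macrophage genes were higher at day 89. Of 16 tested macrophage genes 5 rose (31.2%) and 0 fell, and in controls 7 rose and 1 fell. The count was 3 without any 1 of 75, 80, 81, 82, R38 or R78, and 1 without R29. Without R38, 1 macrophage gene fell. Siglec1, the sialic acid receptor of resident macrophages, had 2.98, 2.2, 3.09 and 2.55 FPKM at day 89, against 0.655, 0.98, 0.821 and 0.978 FPKM at day 7 and rose by 0.99 (SE 0.14, adjusted p = 0.0015). Csf1r, the receptor for their growth factor, rose by 0.57 (SE 0.17, adjusted p = 0.0306) and was not called without 81, 82, R29 or R78 (adjusted p 0.0541 to 0.0983). Cd68, a lysosomal glycoprotein of phagocytes, had 56, 76, 33 and 34.1 FPKM at day 89, against 15.2, 22.7, 18.4 and 20.4 FPKM at day 7. All day 89 libraries were above day 7, with a rise of 1.26 (SE 0.38, adjusted p = 0.0308), lost without 75, 81, R29 or R38 (adjusted p 0.0656 to 0.0821).

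Of 14 tested genes of lipid-laden macrophages 4 rose and 0 fell, as in controls, and 1 fell without R38 or with the length trend removed. Gpnmb, a lysosomal membrane protein of such cells, had 12.7, 18.7, 21 and 20.9 FPKM at day 89, against 4.25, 4.26, 5.48 and 6.5 FPKM at day 7, a rise of 1.65 (SE 0.22, adjusted p = 0.00119), and rose by 2.23 in controls. Cd36, a scavenger receptor also found in fat and endothelium, rose by 0.89 (SE 0.29, adjusted p = 0.0448) and lost its call without any 1 of 75, 80, 81, R38, R78 or R89 (adjusted p 0.0649 to 0.117). Of 36 interferon response genes 5 rose and 0 fell, 13.9% against 10.7% of all genes. The count was 3 without 75, 81 or R78, 2 without R29 and 11 in the rescaled values. The list's median was 0.27, while in controls it was −0.24 with 10 fallen and 0 risen. For 12 of the 36 the difference of both changes had an unadjusted p under 0.05, and for none an adjusted p under 0.05. Usp18, which limits interferon signalling, had 2.18, 3.48, 3.14 and 2.23 FPKM at day 89, against 1.09, 1.21, 0.947 and 1.66 FPKM at day 7 and rose by 0.75 (SE 0.16, adjusted p = 0.00736). Ddx58, the viral RNA sensor RIG-I, rose by 0.67 (SE 0.16, adjusted p = 0.0108). Ifih1 and Rsad2, a second sensor and an antiviral enzyme, rose by 0.65 and 0.69 and lost their calls in 3 and 5 of the leave-one-out fits.

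Few lymphocyte genes were called in DSS ovaries. In controls 3 T and NK cell genes rose and 0 fell, and of the B and plasma cell genes 0 rose and 0 fell. Of 14 tested T and NK cell genes 0 passed with limma (2 had an unadjusted p under 0.05) and 1 with voom, 2 rose in the rescaled values, and 1 of 11 tested genes of B and plasma cells did. That gene was Ighg1, the heavy chain of an IgG subclass, with 0.147, 0.599, 0.425 and 0.764 FPKM at day 89, against 3.24, 1.94, 1.61 and 1.38 FPKM at day 7 and a log2 change of −1.02 (SE 0.25, adjusted p = 0.0133). Igkc, the kappa light chain, had 18, 35, 18.4 and 12.3 FPKM at day 89, against 9.91, 17.1, 11 and 9.48 FPKM at day 7, a log2 change of 0.71 (SE 0.30, adjusted p = 0.106) with overlap. Igkc in controls was 2.26, 5.09 and 4.02 FPKM at day 89 and 5.38, 3.15 and 6.61 FPKM at day 7, so it stood higher in each DSS library than in any control library. Immunoglobulin genes share sequence, and the split of their reads is uncertain. Red cell transcripts varied widely. Summed globin FPKM was 43.5, 136, 191 and 650 in the DSS day 89 libraries, against 520, 406, 720 and 504 in the DSS day 7 libraries, and R89 lay within the day 7 range (exact permutation p = 0.114, 2-sided). Hba-a1, an alpha globin, changed by −1.61 (SE 0.61, adjusted p = 0.0727). Hba-a2, another alpha globin, fell by 2.05 (SE 0.50, adjusted p = 0.0135) without overlap, and by 2.44 in controls (adjusted p = 0.00709). All 6 tested erythrocyte genes of 9 listed had a change below 0. Of these 2 fell, Hba-a2 and Bpgm, and 2 to 6 fell when 1 DSS library was left out. In controls 2 fell. Bpgm, the erythrocyte enzyme that sets oxygen affinity, fell by 1.21 (SE 0.22, adjusted p = 0.00399), and by 0.91 in controls (adjusted p = 0.018). Bpgm in R89 was 15.1 FPKM, below the DSS day 7 range of 19.8 to 32.5 FPKM, so it did not follow globin in that library. Nor did it in control day 7 replicates 10, 51 and 53. Bpgm was 22.8, 17.2 and 22.9 FPKM there, beside summed globin of 49.3, 309 and 103 FPKM.

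**Figure D4:**
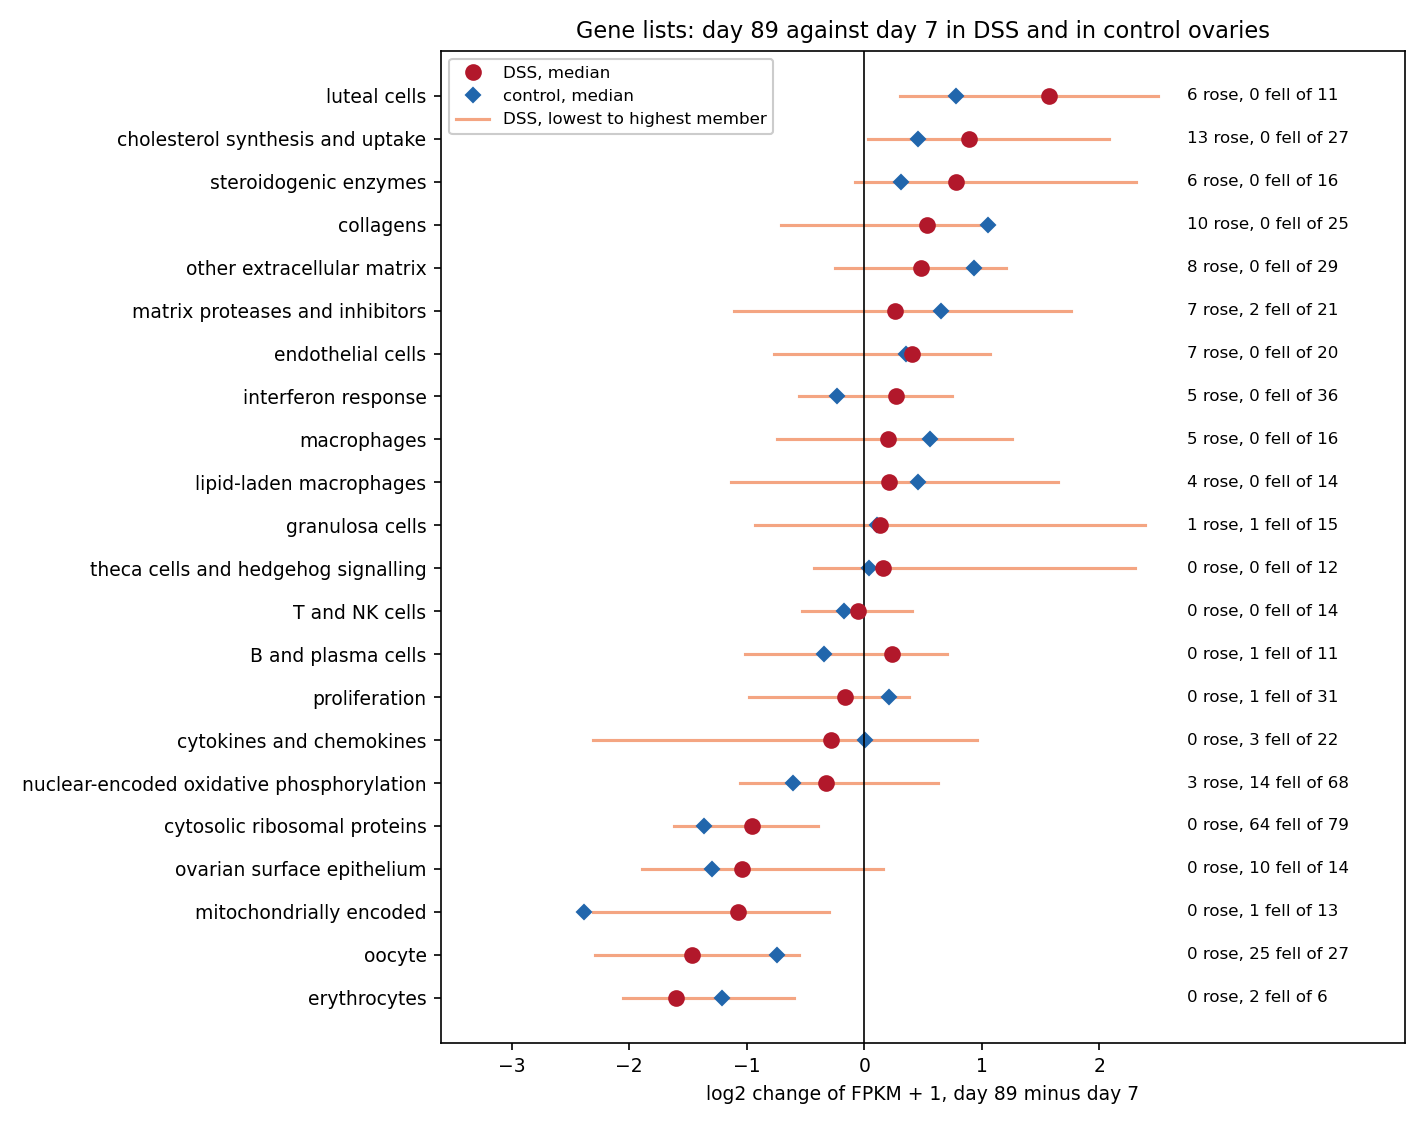
Log2 change of FPKM + 1, day 89 minus day 7, for 22 gene lists: red circles are DSS medians, orange lines span the lowest to the highest member in DSS, blue diamonds are control medians, and the text gives the members called in DSS. Luteal, cholesterol and steroidogenic lists have the highest DSS medians (1.58, 0.89 and 0.78), and the oocyte and erythrocyte lists the lowest (−1.47 and −1.60).

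Cytosolic ribosomal protein genes were lower at day 89 as a body. Of 79 tested 64 fell (81%, against 10.7% of all genes) and 0 rose, with a median of −0.95 and members from −1.62 to −0.39. In controls 74 fell with a median of −1.37. These genes took 4.31, 5.48, 4.58 and 4.79% of reads in the DSS day 89 libraries, against 10.4, 8.03, 8.11 and 8.79% in the DSS day 7 libraries, with no overlap. The list was chosen with earlier results of these data known, so this is a description. With the length trend removed 57 fell, and in the rescaled values 48. Rpl12, a protein of the large subunit, had 156, 240.1, 168 and 166 FPKM at day 89, against 549, 398, 380.0 and 359.6 FPKM at day 7 and fell by 1.20 (SE 0.18, adjusted p = 0.00181). Rpl18, also of the large subunit, fell to 182 ± 7.09 FPKM at day 89, against 371 ± 86.3 FPKM at day 7 (SD, n = 4 each, limma adjusted p = 0.00232). Rpl22, another large subunit protein, fell by 0.87 (SE 0.13, adjusted p = 0.00159), and Rps13, of the small subunit, fell by 0.91 (SE 0.14, adjusted p = 0.00188). Ribosomal protein genes have many processed copies, and the labels do not say how multiply mapped reads were counted.

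Of 68 nuclear genes of oxidative phosphorylation 14 fell and 3 rose (median −0.32; in controls 36 fell and 6 rose). The count of falls was 3 without R29, R78 or R89, 5 without 75, 6 without 81, 29 without R38, 7 with the length trend removed and 1 in the rescaled values. Ndufs4, of complex I, fell by 0.73 (SE 0.12, adjusted p = 0.00259) and Uqcrh, of complex III, fell by 0.84 (SE 0.21, adjusted p = 0.0152), and neither was called in the rescaled values (adjusted p = 0.0754 and 0.063). Of the 13 mitochondrially encoded protein genes 1 fell in DSS, with a list median of −1.07, and 8 fell in controls, with a median of −2.39. The gene that fell in DSS was mt-Nd3, another subunit of complex I. It had 35.4, 48.4, 39.9 and 18.7 FPKM at day 89, against 429.6, 84.6, 185 and 127 FPKM at day 7 and fell by 2.31 (SE 0.50, adjusted p = 0.00785). The mitochondrial leucine transfer RNA mt-Tl2 had 50.9, 62.3, 48.3 and 47 FPKM at day 89, against 736, 133, 381 and 308 FPKM at day 7 and fell by 2.64 (SE 0.59, adjusted p = 0.0092). Replicate 75, which held the highest mitochondrial share, was also the highest DSS library in both genes, and the part of that share in these values was not tested. In controls mt-Nd3 changed by −2.79 (adjusted p = 0.00335) and mt-Tl2 by −2.59 (adjusted p = 0.012).

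Small RNA genes filled out the largest changes. Mir186, Mir6387 and Mir5119 rose by 3.38 (SE 0.43, adjusted p = 0.00119), 2.32 (SE 0.49, adjusted p = 0.00696) and 2.05 (SE 0.62, adjusted p = 0.0331). Mir6387 was listed at 0 in all 7 day 7 libraries of both treatments. It entered the test only through the day 89 libraries, and Mir186 would not have entered without them. The filter thus partly sets both rises. Mir5119 lost its call in 6 of the 8 fits that leave out 1 DSS library (adjusted p 0.0617 to 0.0888). Mir99a fell by 2.88 (SE 0.65, adjusted p = 0.00942), with 1.95, 40.7, 6.59 and 6.96 FPKM at day 89, against 138, 40.7, 78 and 46 FPKM at day 7. Replicate R38 equalled the lowest day 7 library to within rounding. Rn7sk, the RNA that restrains transcription elongation, had 1.53, 1.04, 0.925 and 2.9 FPKM at day 89, against 11.7, 20.5, 57.8 and 23.3 FPKM at day 7 and fell by 3.32 (SE 0.43, adjusted p = 0.00119). In controls Mir186 changed by 2.64, Mir6387 by 1.98, Mir99a by −3.69 and Rn7sk by −2.61, each called with limma. Mir5119 changed there by 0.85 (adjusted p = 0.387). The microRNA genes are 57 to 108 bases long, so few reads carry each value, and total RNA libraries do not separate the precursor from the mature form or from a host transcript. Malat1, an abundant nuclear RNA, rose by 1.10 (SE 0.28, adjusted p = 0.0157), and 1 other of 8 such RNAs, Xist, rose with it, while 2 fell in controls. Of these RNAs 1 rose without 80, 81, R29 or R78, 4 rose in the rescaled values, and with the length trend removed 1 rose and 1 fell.

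Few genes of the cell state lists were called in DSS ovaries. Of 31 proliferation genes 1 fell and 0 rose, but 9 fell without 75, 3 without R89 and 0 in the rescaled values. In controls 3 rose and 1 fell. The gene called in DSS was Birc5, survivin, which fell by 0.98 (SE 0.15, adjusted p = 0.00181) and was not called in the rescaled values (adjusted p = 0.0503), while Mki67, a marker of cycling cells, had 15.2, 11.7, 14.1 and 14.8 FPKM at day 89, against 15.4, 15.8, 14.6 and 17.2 FPKM at day 7 (log2 change −0.17 (SE 0.17, adjusted p = 0.509)). Cdkn1a, the p53 target p21, changed by −0.93 (SE 0.48, adjusted p = 0.177), with replicate 75 at 40.5 FPKM the highest of all 14 libraries. Clock genes Dbp and Per1 changed by 0.37 (SE 0.33, adjusted p = 0.429) and −0.20 (SE 0.19, adjusted p = 0.467), and the immediate-early gene Fos by 0.07 (SE 0.58, adjusted p = 0.939). Tsc22d3, a glucocorticoid-induced leucine zipper protein, had 12, 15, 12 and 14.8 FPKM at day 89, against 31.3, 21.4, 28.8 and 23.2 FPKM at day 7 and fell by 0.90 (SE 0.18, adjusted p = 0.00566), with a change of −0.94 in controls. In the other lists, each of 7 to 24 tested genes, at most 2 genes rose and at most 2 fell, except that 3 of 24 antioxidant genes rose. Leaving out 1 DSS library gave at most 4 risen and at most 2 fallen in any of these lists, and at most 1 antioxidant gene risen. In controls more members were called in some of these lists. Of 20 unfolded protein and stress response genes 8 rose and 2 fell, and of 13 smooth muscle genes 1 rose and 5 fell. Of 18 p53 and senescence genes 4 rose and 1 fell, and of 19 clock genes 2 rose and 4 fell.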

How the data were processed

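RNA sequencing of ovaries gave 14 libraries, 1 column each in a table of 56748 genes. The authors deposited FPKM values, which divide the fragments of a gene by its length and by a total for the library. Per the labels' protocols, total RNA was prepared with a TruSeq kit, and the submitters' processing notes name HISAT2 2.0.5 and the GRCm38 build. How reads were counted, on which annotation release and with what strand setting, is not stated in these sources, so overlapping, antisense and near-identical genes are uncertain. Multiplying each FPKM by gene length recovered whole reads in every library (100% of values below 300 reads came within 0.01 of an integer), and with them the depth. A gene of 2 kilobases at 0.5 FPKM rests on 13.5 to 19.0 reads. The total that scaled each library ran from 0.852 (replicate 75) to 1.07 (replicate 81) times its recovered reads. TMM factors, computed from the recovered reads to correct for composition, were 0.879 and 1.07 in the same libraries. The values were therefore not scaled by plain depth, and how they were scaled is not stated. An abundant class of transcripts may still move all others.

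Values were tested as log2(FPKM + 1), which understates the change of low genes. Genes with at least 0.5 FPKM in at least 3 of the 14 libraries were tested, 18006 in all, and a gene may pass through 1 group alone. The model, limma 3.58.1 under R 4.3.3 with the trend option, had a mean for each of the 4 groups, and p-values were adjusted by Benjamini-Hochberg over all genes tested (threshold 0.05). The design assumed a count test should the table hold counts, and because it holds FPKM the limma test stands in its place. Single values per library were compared by exact permutation tests. Control ovaries entered as their own comparison and in the test of the difference of changes.

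The members and the 41 gene lists were chosen with earlier results of these data known, so a list's count is a description. Named genes are, for each direction, the 12 called genes of greatest change whose libraries did not overlap and whose mean reached 1 FPKM on either side (predicted, unnamed and pseudogene symbols aside), then up to 4 members with the smallest p per list, and 21 key genes. Some genes within this rule are not reported here. Gene positions come from GENCODE M21 on GRCm38 by gene ID, since 1435 of 52073 matched IDs had the same position in the deposited table. Alternatives changed the pseudocount, filter, scaling, test, length trend, mitochondrial share and libraries.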

Additional observations from a re-analysis of the deposited data

Results flagged for a closer look

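In groups of 4 libraries, a library was marked when its gap to the nearest other took up nearly the whole range of the group. Over 204 groups tested, 17 were marked, where chance marks about 1 in 20. Their causes were not tested.

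Among DSS day 89 libraries, replicate R38 was marked 5 times. Its mitochondrial share of 3.66% was the highest of the group and its short-minus-long measure of 0.107 the only positive one. Cdh5 at 28.8 FPKM and Nid2 at 14.9 FPKM were low there, and Retnlg at 0.291 FPKM was the only value above 0. Replicate R89 was low in Star, at 64.8 FPKM. Replicate R29 was low in Hsd3b6, at 0.352 FPKM, and replicate R78 was high in S100a9, at 1.99 FPKM.

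Among DSS day 7 libraries, replicate 75 was marked for its mitochondrial share of 14.2%. In the same library S100a9 at 63.9 FPKM and Rpl18 at 500.2 FPKM were high, and Scd1 at 1.87 FPKM and Timp3 at 1.88 FPKM were low. Replicate 80 was high in Col4a1, at 91.9 FPKM. Replicate 81 was high in Cpxm2, at 1.37 FPKM, and low in Hsd3b6, at 0.0586 FPKM. Replicate 82 was low in Csf1r, at 6.92 FPKM.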

How the results depend on the processing

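The count of 3860 genes changed in DSS ovaries lay between 2823 and 3869 when the pseudocount, filter, scaling, length trend, mitochondrial share or test was changed, and was 7956 with sample weights. Leaving out 1 library gave 2034 (without R29) to 4930 (without R38), with 2061 without R78 and 2510 without 81. Leaving out 75 and R38 together, an alternative chosen after seeing the data, gave 4326. In controls 2436 genes changed with mitochondrial share as a covariate, 3231 without the 3 libraries of high share (75, 10 and 53), 11786 with sample weights, and 3695 (without 53) to 6463 (without 75) when 1 library was left out. The difference of changes gave 2 genes with no filter, 3 without the 3 libraries of high mitochondrial share, 4226 with sample weights, 42 without 75 and R38, and 0 to 41 without 1 library, the 41 without 75. Rescaling to a common sum put 78.9% of called genes higher in DSS and 84.1% in controls, against 49.9% and 50.6%, and moved the median of all genes by 0.29 and 0.46. The calls of 84 of the called genes named were followed across alternatives. Of these 64 were called with the same sign under every alternative with a value, and none reversed. Uncalled genes reversed as follows: Fos was −0.037 with voom, −0.38 with mitochondrial share as a covariate, −0.33 without the 3 libraries of high share, and −0.49 to 0.58 without 1 library; Mki67 was 0.15 and Per1 0.11 after rescaling. The causes were not tested. No paired analysis was possible because the library numbers do not recur between groups. The planned tests with edgeR and DESeq2 were not run, since the table holds FPKM and not counts. Depth limits genes near 0.5 FPKM.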
